A study of Homo sapiens with 8 samples.

Results

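The arrays compared here came from 2 human hepatoma cell lines, Huh7 and Hep-3B, that carried the same control hairpin. They are the 2 arrays labelled Huh7-shLuc and the 2 labelled Hep-3B-shLuc, 4 of the 8 arrays of the series, and they were chosen by these labels alone. Every difference is given as Huh7 minus Hep-3B over all 54675 probe sets of the array and over 19775 genes, each read from 1 probe set, so that ranks and counts of genes hold for the probe sets read. The remaining 4 arrays are the same lines with a hairpin against KLHL23, a Kelch-like protein of the family whose members bring substrates to cullin 3 ubiquitin ligases.

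Both control groups were grown in medium with 10% fetal bovine serum and received lentivirus, with a multiplicity of infection given as 2. The virus encoded a short hairpin RNA against luciferase, a gene that human cells do not have, and puromycin was added 48 h later to keep infected cells. The controls are therefore virus-carrying, drug-selected cells and not untouched cultures. Each group has 2 arrays, numbered 1 and 3 in the labels. Whether the 2 were grown apart is not said in the labels, so the spread behind the p-values may be technical. That spread is pooled within the 4 groups of all 8 arrays, the knockdown arrays included, and an SE can be wider than the control arrays alone would give.

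Hepatoma lines are liver cancer cells grown in culture. They keep part of the work of a hepatocyte, such as secretion of albumin and other plasma proteins, and often carry genes of the fetal liver such as AFP, which encodes alpha-fetoprotein. Lines from different tumours differ in the lesions they carry, among them loss of the tumour suppressors p53 and RB. The transcription factor p53 turns on genes of growth arrest and cell death after DNA damage, so transcripts of its targets are commonly read as a sign of whether it works.

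Levels are given as log2 values of the deposited table, in which 1 unit is a 2-fold difference. A gene was called where limma gave a Benjamini-Hochberg adjusted p under 0.05 over all probe sets. The lower quartile of the 4 control arrays lay at 3.08 to 3.12, and a level below it is here called low. The table holds no detection call, so the size of a fold with a low side is uncertain. The transcript targeted in the other arrays, KLHL23, stood at 7.81 and 7.84 in Hep-3B and at 7.89 and 7.87 in Huh7, a difference of 0.05 (SE 0.27, n = 2 per group, limma adjusted p = 0.921). In the 4 knockdown arrays it lay between 5.78 and 7.21. The 3'-to-5' difference of ACTB, a sign of RNA length, was 0.442 and 0.537 in Hep-3B and 0.873 and 0.833 in Huh7, so it moved with the line. That of GAPDH was 0.117 and 0.12 against 0.132 and 0.0887. The part of RNA length in the results below was not tested.

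The labels were set against what is known of the lines. ALB, the gene of albumin, was at 13.54 and 13.53 in the arrays labelled Hep-3B and at 13.53 and 13.47 in those labelled Huh7. AFP was at 12.35 and 12.35 against 12.38 and 12.39, a difference of 0.03 (SE 0.25, n = 2 per group, limma adjusted p = 0.951). Both groups thus carried the albumin and alpha-fetoprotein transcripts of a hepatoma line, and none of the 18 measured hepatocyte markers was low in either. The tetraspanin CD81, an entry receptor for hepatitis C virus that Huh7 is known to display, was at 9.13 and 9.41 in Huh7. It was at 3.16 and 3.86 in Hep-3B. CD81 was read as a check of the Huh7 label only, and its level in Hep-3B was not set against what is known of that line. Targets of p53 and GPC3 went against the labels. Hep-3B is known to lack p53, yet the arrays labelled Hep-3B held p53 target transcripts far above those labelled Huh7, as described below. Hep-3B is also known to lack a working RB protein, while the RB1 transcript was at 8.75 and 8.86 there and at 9.19 and 9.06 in Huh7, which says nothing of the protein. Huh7 is widely used as a line that carries GPC3, a cell-surface glypican of fetal liver and liver cancer, yet GPC3 stood at 3.35 and 3.47 in the arrays labelled Huh7. The identity of the lines was not tested, and below Hep-3B and Huh7 are the names on the labels.

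The lines differed at 14085 of 54675 probe sets, 25.8% of the table, with 7053 higher and 7032 lower in Huh7. Read per gene, 5978 of 19775 were called, a background of 30.2%. Of these 3248 (16.4%) were higher and 2730 (13.8%) lower in Huh7. A difference of at least 2-fold was called for 1678 genes (8.49%), with 866 (4.38%) higher and 812 (4.11%) lower in Huh7, and of at least 4-fold for 498 (2.52%), with 275 (1.39%) higher and 223 (1.13%) lower. The median difference over all genes was 0.018 and the median absolute difference 0.194. Any pair of arrays from the 2 lines with the same hairpin differed by an SD of 0.704 to 0.72 over genes, against 0.157 to 0.25 between replicates. Between 1667 and 1829 genes differed over 2-fold in such a pair of lines, and 1 to 62 between replicates. Arrays of 1 line with different hairpins differed by an SD of 0.218 to 0.378.

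**Figure D1:**
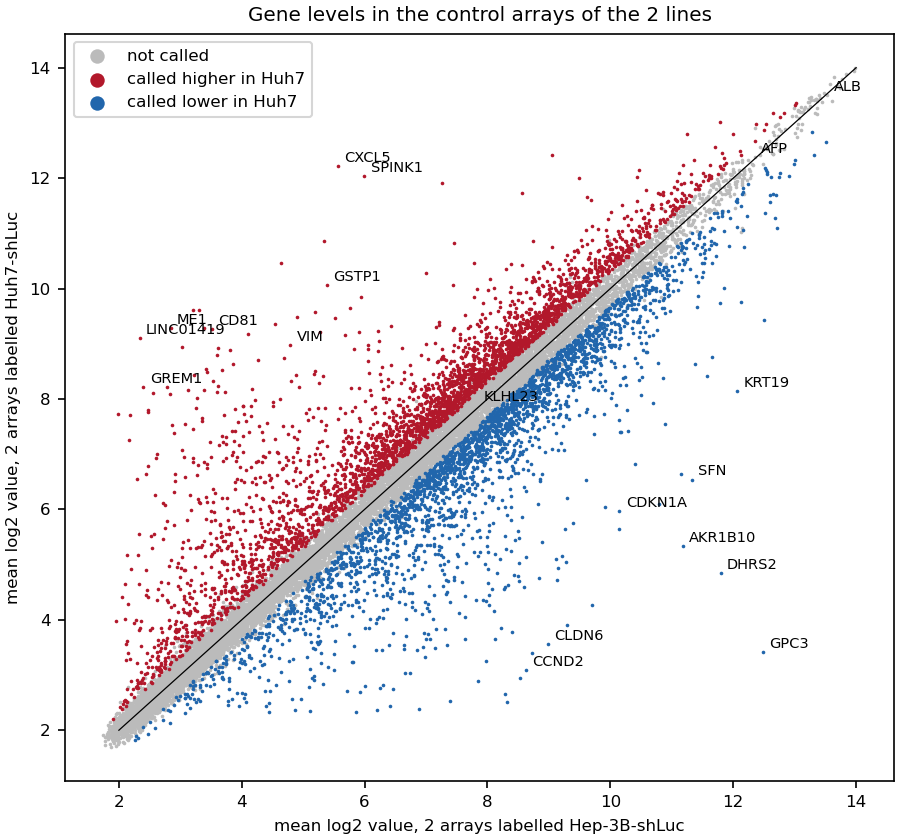
Each point is 1 gene, placed by its mean log2 value in the 2 arrays labelled Hep-3B-shLuc (horizontal) and the 2 labelled Huh7-shLuc (vertical), with called genes in red (3248 higher in Huh7) and blue (2730 lower) and the line of equal level in black. ALB, AFP and KLHL23 lie on the line, while GPC3 lies farthest below it at 12.48 against 3.41.

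At the 1 probe set read per gene, GPC3 had the largest difference of either direction. Its levels were 12.46 and 12.49 in Hep-3B, near the top of the array, against 3.35 and 3.47 in Huh7. The lines were -9.07 apart (SE 0.13, n = 2 per group, limma adjusted p = 2.67e-09), a 536-fold lower value, and both of its probe sets were called lower. Next came DHRS2, a short-chain dehydrogenase, at 11.79 and 11.79 against 5.29 and 4.41, a difference of -6.94. Another probe set of DHRS2 gave -9.21, past that of GPC3, at 12.52 and 12.54 against 3.17 and 3.48. AKR1B10, an aldo-keto reductase often raised in liver cancer, was at 11.19 and 11.16 against 5.42 and 5.24, a difference of -5.85. These 3 genes were among the brighter transcripts of Hep-3B and lay 57.5-fold or more lower in Huh7, with no overlap of arrays, which held for 67.1% of all genes. UGT2A3, a glucuronosyltransferase, differed by -5.81, the basement membrane collagen chain COL4A5 by -5.63 and the noncoding transcript PWAR6 by -5.58, and all 3 were low in Huh7. CCND2, a D-type cyclin of the start of the cell cycle, was at 8.70 and 8.55 in Hep-3B and at 3.15 and 3.02 in Huh7. CRYAA, an alpha-crystallin of the eye lens, and CLDN6, a claudin of embryonic epithelia, each differed by -5.43. ITIH3, a hyaluronan-binding plasma protein, differed by -5.38 and the glutamate transporter SLC1A2 by -5.33. The rest of the 15 largest were FAM110C at -4.96, the bile acid transporter subunit SLC51A at -4.86, SFN at -4.79 and CCDC144NL-AS1 at -4.73. SFN encodes 14-3-3 sigma, an arrest protein.

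In the other direction, at the 1 probe set read per gene, the noncoding transcript LINC01419 differed most, at 2.30 and 2.39 in Hep-3B against 9.10 and 9.09 in Huh7. The lines were 6.76 apart (SE 0.14, n = 2 per group, limma adjusted p = 9.86e-09). CXCL5, a chemokine that draws neutrophils, was at 5.6 and 5.54 against 12.29 and 12.13, a 100.0-fold higher value in Huh7, and another of its probe sets gave a larger difference of 7.21. ME1, the cytosolic malic enzyme that makes NADPH, was at 2.73 and 2.95 against 9.35 and 9.22. All 3 were above 9 in Huh7, and LINC01419 and ME1 were low in Hep-3B. WDR72, a WD-repeat protein, differed by 6.41, ATL3, a GTPase that shapes the endoplasmic reticulum, by 6.30, and SPINK1, a secreted trypsin inhibitor known as a liver tumour marker, by 6.04. The calcium-binding protein SRI differed by 5.91, PLBD1 by 5.90 and the phospholipase PLAAT3 by 5.82. GREM1, a secreted BMP antagonist, differed by 5.82, CD81 by 5.76 and the noncoding transcript CRNDE by 5.74. AMIGO2, an adhesion protein, and RFX6, a transcription factor of the endocrine pancreas, each differed by 5.54, and the amino acid transporter SLC6A14 by 5.51. Over all genes, 14 (0.0708%) were low in both Hep-3B arrays and above the upper quartile in both Huh7 arrays, and 6 (0.0303%) the reverse. The 14 held ME1, LINC01419, GREM1, CRNDE, AMIGO2, RFX6, PLAGL1 and BICC1, and the 6 held UGT2A3, COL4A5, PWAR6, FAM110C, SLC51A and TCEAL8.

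**Figure D2:**
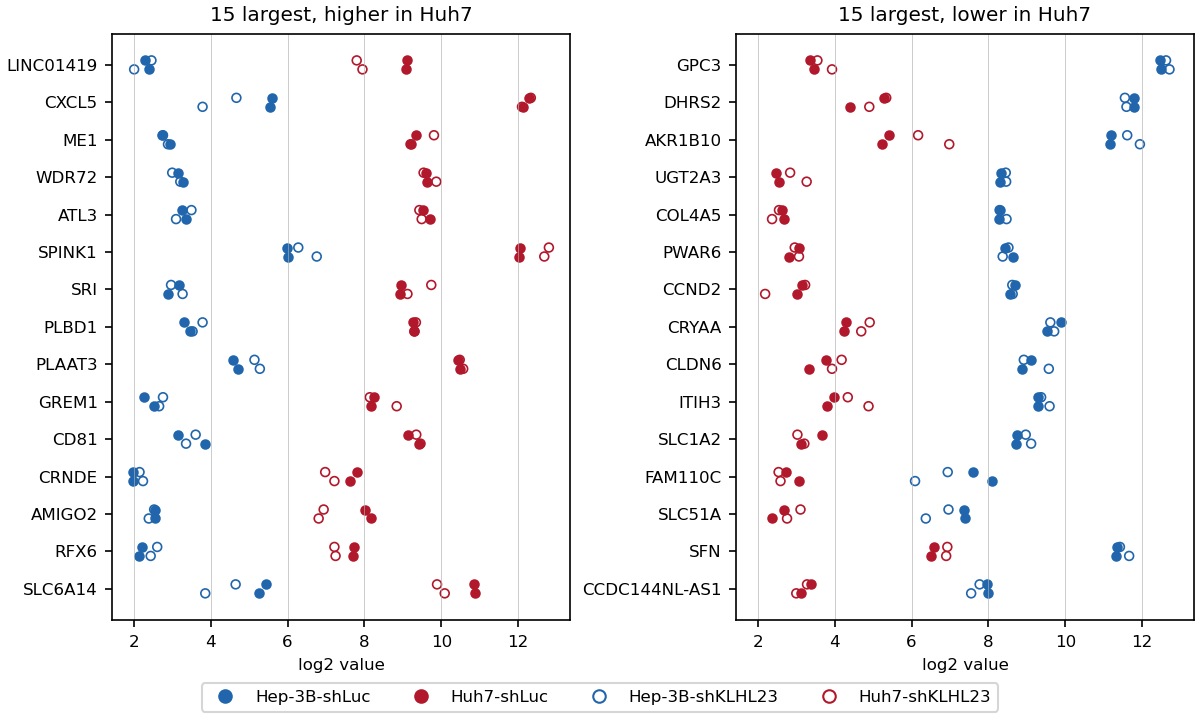
Log2 value of each array (horizontal) for the 15 genes called highest and the 15 called lowest in Huh7 control, with filled points for the control arrays, open points for the KLHL23 knockdown arrays, blue for Hep-3B and red for Huh7. Blue and red points lie apart for each gene shown, and open points fall near the filled points of their line more often than near the other line, as for GPC3 at 12.62 and 12.71 against 3.55 and 3.93 in the knockdown arrays.

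Promoter sequences of 4 strongly differing genes are shown as examples with few and with many CG pairs. A CG pair is the base step at which promoters can be methylated. Each is the 150 bases up to the base before the transcript start, from RefSeq on GRCh38.p14, with CG pairs in capitals.
COL4A5: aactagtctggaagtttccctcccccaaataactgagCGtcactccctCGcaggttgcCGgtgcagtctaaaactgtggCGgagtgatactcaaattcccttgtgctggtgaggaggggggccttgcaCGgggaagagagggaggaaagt
DHRS2: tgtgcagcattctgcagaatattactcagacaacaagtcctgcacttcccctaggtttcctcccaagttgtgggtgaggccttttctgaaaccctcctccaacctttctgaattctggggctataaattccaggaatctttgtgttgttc
ME1: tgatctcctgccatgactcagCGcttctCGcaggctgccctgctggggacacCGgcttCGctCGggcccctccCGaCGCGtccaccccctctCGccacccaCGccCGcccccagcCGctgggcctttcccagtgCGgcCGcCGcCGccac
GSTP1: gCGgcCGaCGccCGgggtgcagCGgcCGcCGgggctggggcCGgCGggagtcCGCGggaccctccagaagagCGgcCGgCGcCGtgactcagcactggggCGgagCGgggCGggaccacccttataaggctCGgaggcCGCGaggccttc
The stretch of COL4A5, lower in Huh7, is chrX:108439688-108439837 on the plus strand and holds 5 CG pairs. That of DHRS2, also lower, is chr14:23629965-23630114 on the plus strand and holds 0. The stretch of ME1, higher in Huh7, is chr6:83431052-83431201 on the minus strand with 16 CG pairs, and that of GSTP1, also higher, is chr11:67583662-67583811 on the plus strand with 21. The 4 were chosen after their values were seen and do not stand for the genes that differed in the same direction. Over the 250 bases before the start, 153 of 219 genes called at least 4-fold higher in Huh7 (69.9%) had 10 or more CG pairs. The share was 80 of 158 (50.6%) for genes called at least 4-fold lower and 69.4% for the other 15007 genes with a promoter in the table. The median number of CG pairs was 17, 10 and 18 in these sets. DNA methylation was not measured, and the shares were not tested. COL4A5 and COL4A6 start 380 bases apart on opposite strands, so that their windows overlap by 121 bases, and COL4A6 was lower in Huh7 as well. Its levels were 6.38 and 6.23 in Hep-3B and 2.74 and 2.90 in Huh7, a difference of -3.48 (SE 0.11, n = 2 per group, limma adjusted p = 8.55e-08), with all 3 probe sets called lower.

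Gene lists for the tissue were then read against the background of 30.2% called, 16.4% higher and 13.8% lower. That background takes in dim genes. In a fit to probe sets above 4.58, the median value, in a control group, 6298 of 12885 genes were called. Of these 3362 were higher and 2936 lower in Huh7. This share is larger, so a list of mostly brighter genes can pass 30.2% without standing out among them. Their members were chosen with earlier results of these data known, so counts and medians are given as descriptions and no list was tested. Of 87 measured plasma protein genes 16 were higher and 29 lower in Huh7, 51.7% in all, with a median difference of -0.10. Besides ITIH3, the lower members included SERPINA7, the carrier of thyroid hormone, at 10.91 and 10.85 against 7.64 and 7.44. HAMP, which encodes the iron hormone hepcidin, was at 11.42 and 11.34 against 8.63 and 8.64. Among the higher members, KNG1, the kininogen of the contact system, was at 4.84 and 4.77 in Hep-3B against 8.32 and 8.31 in Huh7. CPB2, a plasma carboxypeptidase that slows clot lysis, differed by 3.16. Single secreted proteins thus differed strongly in each direction around a median near 0.

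Of 18 hepatocyte markers 5 were higher and 7 lower in Huh7. FGA, a fibrinogen chain, differed by 1.67, and RBP4, the carrier of retinol, by 1.04. TTR, the transport protein transthyretin, differed by -1.08 and the apolipoprotein APOA1 by -0.90. Chosen after their values were seen, APOE differed by -1.38 and ASGR1, a subunit of the asialoglycoprotein receptor of hepatocytes, by -0.52 (limma adjusted p = 0.0444). The summed unlogged level of the 18 markers was 82093 and 82474 in Hep-3B and 79939 and 80478 in Huh7, so the sums lay within a few percent of each other. In RNA of a whole culture, fewer cells of a type and less RNA per cell cannot be told apart.

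Among 31 oncofetal liver genes 7 were higher and 12 lower in Huh7 (61.3%, median -0.19). GPC3 and SPINK1 stood at the ends. SPINK1 was at 5.98 and 6.01 in Hep-3B and at 12.06 and 12.02 in Huh7. GPC1, another glypican, differed by -2.22. DLK1, a surface protein of fetal liver cells, differed by -2.48 at its bright probe set, while its other probe set gave 0.09 (limma adjusted p = 0.663), so its direction rests on 1 probe set. The liver transcription factors had 16 higher and 12 lower of 52 measured (53.8%, median 0.03). NR0B2, a repressor that curbs bile acid synthesis, was at 10.80 and 10.77 in Hep-3B and at 6.06 and 6.12 in Huh7, a difference of -4.70 (SE 0.12, n = 2 per group, limma adjusted p = 1.98e-08). The nuclear receptor RORA differed by -3.65 and ZBTB20, a repressor active in adult hepatocytes, by -2.07. GATA6, a factor of early endoderm, differed by 1.84.

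Enzymes and carriers of the hepatocyte were called in both directions. For drug metabolism and conjugation 35 of 111 were higher and 29 lower (57.7%, median -0.01). AKR1B10 and UGT2A3 led the lower members. SULT1E1, which sulfates oestrogens, was at 3.36 and 3.71 in Hep-3B and at 8.41 and 8.25 in Huh7, and GSTP1, a glutathione transferase of biliary and tumour cells, at 5.6 and 5.19 against 10.03 and 10.09. For bile acid synthesis and hepatic transporters 16 of 55 were higher and 19 lower (63.6%, median -0.05). SLC51A and NR0B2 led the lower members, with the glucose transporter SLC2A3 at -4.51 and AKR1D1, a steroid reductase of bile acid synthesis, at -3.69. FGF19, a hormone that restrains bile acid synthesis, was dim, at 3.82 and 3.55 in Hep-3B and at 4.99 and 5.09 in Huh7. It differed by 1.36 and its receptor FGFR4 by 1.19.

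The urea cycle and amino acid breakdown genes leaned to Huh7, with 25 of 63 higher and 8 lower (52.4%, median 0.22). ACMSD, an enzyme of tryptophan breakdown, differed by 2.74 with a low level in Hep-3B, and AMDHD1, of histidine breakdown, by 2.07. HPD, of tyrosine breakdown, went the other way at 10.41 and 10.39 in Hep-3B against 6.80 and 6.85 in Huh7, a difference of -3.57, and KYNU, of tryptophan breakdown, differed by -2.13. For lipid synthesis and oxidation 21 of 80 were higher and 15 lower (45.0%, median -0.01). FABP1, the fatty acid binding protein of liver, was at 7.28 and 7.25 against 11.93 and 11.91 in Huh7. INSIG1, which restrains sterol synthesis, differed by 3.50. CPT1A, which brings long-chain fatty acids to mitochondrial oxidation, differed by -3.49, and STAR, which carries cholesterol into mitochondria, by -2.57. For glucose and glycogen metabolism 10 of 49 were higher and 20 lower (61.2%, median -0.20). The lower members were led by PFKFB4, a regulator of glycolysis, at -2.48, the enolase ENO2 at -2.33 and the glycogen branching enzyme GBE1 at -1.97. FBP1, an enzyme of glucose synthesis, was at 4.43 and 4.56 in Hep-3B against 6.15 and 6.68 in Huh7.

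The p53 pathway genes had the highest share called among the lists, with 40 lower and 4 higher in Huh7 of 61 measured (72.1% called, median -0.72), where 13.8% of all genes were lower. CDKN1A, the cyclin-dependent kinase inhibitor p21, was at 10.14 and 10.15 in Hep-3B and at 6.07 and 5.87 in Huh7, a difference of -4.18 (SE 0.15, n = 2 per group, limma adjusted p = 1.27e-07). SFN was at 11.34 and 11.32 against 6.58 and 6.50. FAS, a death receptor, was at 8.19 and 8.25 against 3.87 and 3.84, with all 5 of its probe sets lower in Huh7. In each of these the Hep-3B arrays stood more than 4 units above both Huh7 arrays. CYFIP2, a regulator of actin, differed by -4.01. A further 3 widely used targets, chosen after their values were seen, were lower too. MDM2, the ubiquitin ligase that p53 induces and that destroys p53, differed by -1.35 (9 of its 10 probe sets lower), the DNA repair gene DDB2 by -2.14 and the RNA-binding ZMAT3 by -1.90. The member with the largest positive difference was KITLG, the ligand of the KIT receptor, at 3.38. The higher levels were in the arrays labelled Hep-3B, the line known to lack p53.

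Of 84 cell cycle and RB pathway genes 35 were higher and 5 lower in Huh7 (47.6%, median 0.27). CDKN1C, an imprinted kinase inhibitor, was at 3.84 and 3.65 in Hep-3B and at 7.51 and 7.12 in Huh7. CCND2 was the lowest. E2F7, a repressor among the E2F factors, differed by 1.43 and CDKN2A, which encodes the inhibitor p16, by 0.98. RB1 differed by 0.32 (SE 0.10, n = 2 per group, limma adjusted p = 0.0442). MYCN, a MYC family oncogene, gave 3.23 at the probe set used, but 9 of its 10 probe sets were not called, and without probe sets that can bind several transcripts it gave -0.06. The proliferation marker MKI67 differed by -0.12 (limma adjusted p = 0.792) and PCNA, the sliding clamp of DNA synthesis, by -0.21 (limma adjusted p = 0.184), both named after their values were seen.

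Genes known as targets of hypoxia-inducible factor, the transcription factor that answers low oxygen, were mostly lower in Huh7. Of 47 measured, 27 were lower and 2 higher (61.7% called, median -0.58). SLC2A3 was at 10.15 and 10.15 in Hep-3B and at 5.63 and 5.64 in Huh7, and SLC2A1, the other widespread glucose transporter, at 10.28 and 10.30 against 7.41 and 7.41. ANKRD37, a small ankyrin-repeat protein, was at 8.23 and 8.30 against 4.47 and 4.66, a difference of -3.70 (SE 0.35, n = 2 per group, limma adjusted p = 6.32e-05). NDRG1, a stress gene, differed by -2.52. EPO, which encodes erythropoietin and is a classic oxygen-regulated gene of hepatoma cells, was at 5.33 and 5.32 against 4.44 and 4.67, a difference of -0.76. The oxygen in the cultures was not given in the labels, and its part was not tested.

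The short core of the element that hypoxia-inducible factor binds, ACGTG, was searched on either strand in the 250 bases before the start. It lies within the palindrome CACGTG, which many other factors bind, so that a palindrome counts as a match on each strand. Promoter stretches are shown for 3 of the 13 list members called lower in Huh7 that held the core. They are examples and do not stand for the rest. Each stretch shown holds the core more than once (RefSeq, GRCh38.p14, cores in capitals).
ANKRD37: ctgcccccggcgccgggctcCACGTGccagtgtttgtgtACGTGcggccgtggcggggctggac
BHLHE40: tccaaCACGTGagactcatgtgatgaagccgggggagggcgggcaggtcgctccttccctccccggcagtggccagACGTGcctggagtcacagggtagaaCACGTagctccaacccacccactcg
PLOD2: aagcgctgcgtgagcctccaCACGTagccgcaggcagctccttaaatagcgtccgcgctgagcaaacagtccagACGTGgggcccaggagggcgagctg
They lie at chr4:185396659-185396722 on the plus strand, chr3:4979187-4979312 on the plus strand and chr3:146161306-146161404 on the minus strand. BHLHE40, a repressor of circadian genes, was 10.23 in Hep-3B and 8.40 in Huh7 on average, and PLOD2, a collagen lysyl hydroxylase, 10.60 and 8.85. The core was in 13 of 22 list members called lower that had a promoter in the table (59.1%), in 6 of 17 other members (35.3%) and in 21.2% of all 15384 genes with one. A match is a match of letters only, and the shares were not tested.

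Genes of NRF2, the factor that answers oxidants, and of glutathione had 27 lower and 10 higher members of 65 (56.9%, median -0.21), with the 2 largest differences in opposite directions. AKR1B10 differed by -5.85 and ME1 by 6.44. GSTP1 differed by 4.67 and the aldo-keto reductase AKR1C3 by -3.08, at 12.48 and 12.53 in Hep-3B against 9.37 and 9.49 in Huh7. For metallothioneins and metal handling 16 of 56 were lower and 6 higher (39.3%, median -0.09). The lower ones included 3 genes of iron balance. HAMP differed by -2.75, TFR2, a sensor of transferrin iron, by -2.65 and SLC40A1, the iron exporter ferroportin, by -2.16. SLC39A8, a zinc and manganese importer, was at 3.60 and 3.28 in Hep-3B against 6.71 and 6.79 in Huh7.

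**Figure D3:**
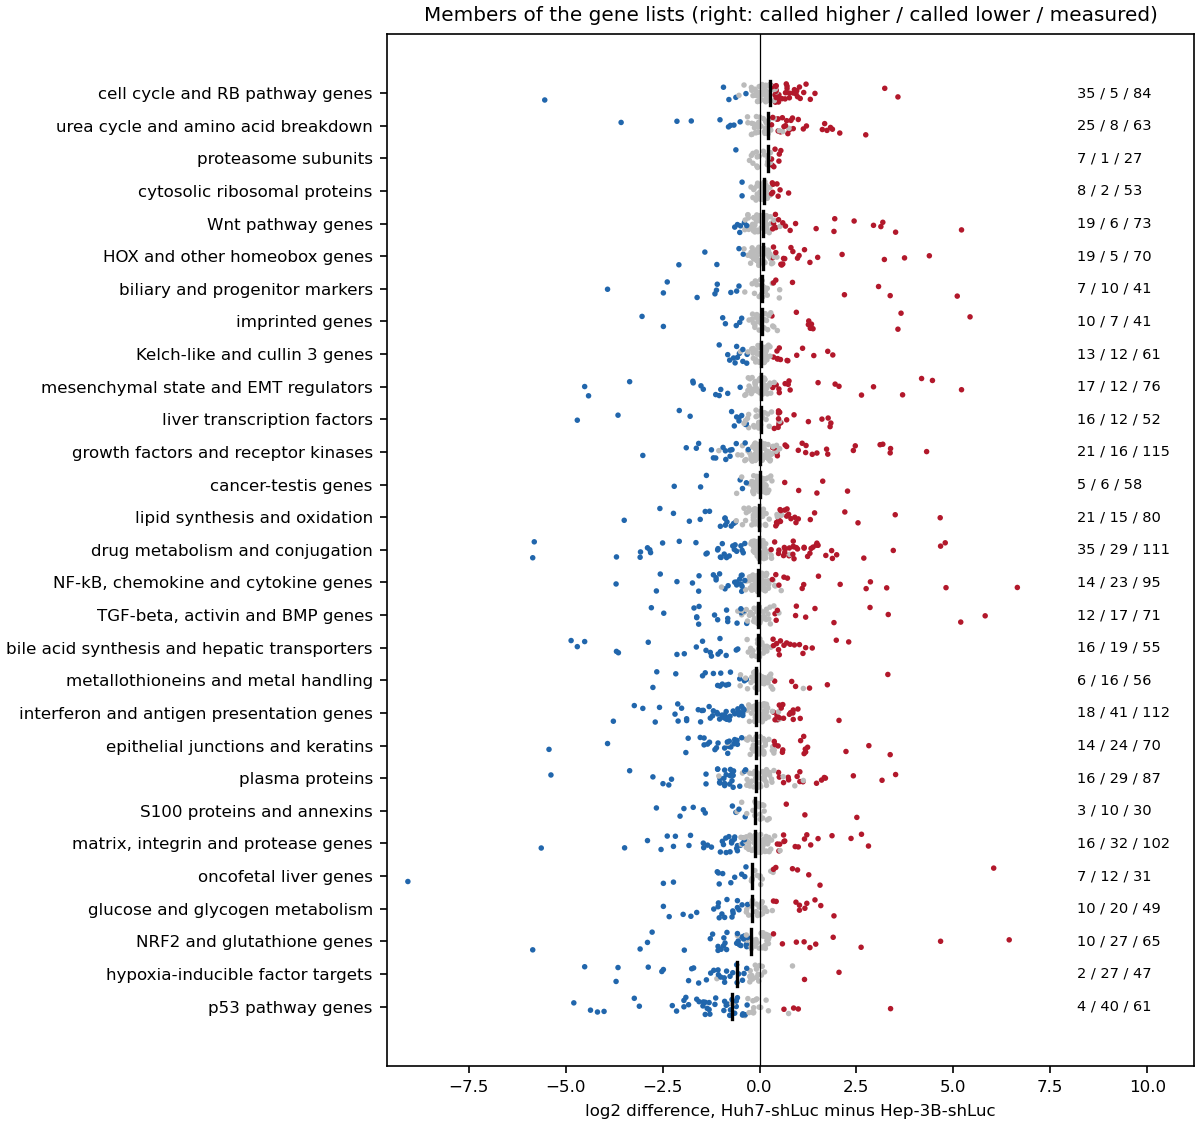
Log2 difference, Huh7-shLuc minus Hep-3B-shLuc, of each measured member of 29 gene lists, with members called higher in red, called lower in blue, not called in grey and the list median as a black bar; the figures at the right count called higher, called lower and measured members. The p53 pathway (4, 40, 61) and hypoxia-inducible factor (2, 27, 47) lists lie mostly left of 0 and the cell cycle list (35, 5, 84) mostly right.

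Interferon and antigen presentation genes had 41 lower and 18 higher members of 112 (52.7%, median -0.09). BST2, which tethers budding virus, was at 7.89 and 8.17 in Hep-3B and at 4.24 and 4.28 in Huh7, and TRIM22, an interferon-induced gene that p53 also drives, at 6.04 and 5.81 against 2.73 and 2.65. PSMB8, an immunoproteasome subunit, differed by -3.01 and the cytidine deaminase APOBEC3B by -2.69. For NF-kB, chemokine and cytokine genes 23 of 95 were lower and 14 higher (38.9%, median -0.03). The neutrophil-drawing CXC chemokines stood out as single genes. CXCL3 was at 4.61 and 4.49 in Hep-3B and at 9.43 and 9.28 in Huh7, CXCL2 at 7.08 and 6.92 against 10.25 and 10.31, and CXCL1, chosen after its values were seen, at 4.52 and 4.55 against 7.65 and 6.92. With CXCL5 all 4 were higher in both Huh7 arrays. IL1RN, the interleukin-1 receptor antagonist, differed by -3.70 at the probe set used, with 3 of 5 probe sets lower, and gave 0.05 without probe sets that can bind several transcripts.

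The epithelial and mesenchymal lists each held members called in both directions. The 70 epithelial junction and keratin genes had 24 lower and 14 higher (54.3%, median -0.10). CLDN6 was the lowest, and KRT19, a keratin of bile ducts, was at 12.10 and 12.01 in Hep-3B and at 8.02 and 8.26 in Huh7. CD24, a surface protein of progenitor cells, was at 9.04 and 9.06 against 12.42 and 12.41, with all 6 probe sets higher in Huh7, and GJB2, a gap junction protein, differed by 2.82. CDH1, which encodes E-cadherin, differed by -0.24 (SE 0.13, n = 2 per group, limma adjusted p = 0.224) and was not called at the probe set read. Its other probe set was called, at -0.74 (limma adjusted p = 0.00267). CDH2, N-cadherin, differed by -0.82 (limma adjusted p = 0.00242). The 76 mesenchymal genes had 17 higher and 12 lower (38.2%, median 0.03). VIM, the intermediate filament vimentin, was at 4.70 and 4.88 in Hep-3B and at 9.0 and 8.94 in Huh7, a difference of 4.18, and the transcription factor TCF4 differed by 4.46. DKK3, a secreted glycoprotein, differed by 5.21. LGALS1, the lectin galectin-1, went the other way at 11.21 and 11.09 against 6.64 and 6.64, as did the smooth muscle actin ACTA2 at 9.19 and 9.06 against 4.68 and 4.75. ZEB1, ZEB2 and SNAI2, repressors of CDH1, were not called at the probe sets read, at -0.29, -0.19 and -0.12 (limma adjusted p = 0.384, 0.425 and 0.501). The sign of ZEB2 turned under other settings. Another probe set of ZEB1 was called lower, at -0.49 (limma adjusted p = 0.0399). SNAI2 was low in both lines and ZEB2 in Huh7, with ZEB2 at 3.17 and 2.79 in Hep-3B, on either side of the lower quartile. The other probe sets of ZEB2 lay between 1.89 and 2.48 in the control arrays of both lines.

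Matrix, integrin and protease genes had 32 lower and 16 higher of 102 (47.1%, median -0.12). COL4A5 and COL4A6 led the lower members, followed by the matrix protein MATN3 at -2.89, and the glypican GPC4 differed by 2.81. Of 41 biliary and progenitor markers 10 were lower and 7 higher (41.5%, median 0.07). BICC1, an RNA-binding protein of bile duct and kidney, was at 2.17 and 2.16 in Hep-3B and at 7.34 and 7.19 in Huh7, and the receptor NOTCH2 differed by 3.07 with all 4 probe sets higher. S100 proteins and annexins had 10 lower and 3 higher of 30 (43.3%, median -0.12). S100A3 differed by -2.66, ANXA4 by -2.05 and S100A2 by -1.95, while ANXA2, a membrane-binding annexin, was at 9.48 and 9.52 against 12.01 and 12.01. The S100 and annexin list thus leaned to Hep-3B, with ANXA2 the member highest in Huh7.

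Signalling lists were read against the same background. For growth factors and receptor kinases 21 of 115 were higher and 16 lower (32.2%, median -0.00). GHR, the growth hormone receptor, was at 2.62 and 2.34 in Hep-3B and at 6.57 and 7.0 in Huh7. KITLG differed by 3.38, FGFR2 by 3.37 and the receptor ROR1 by 3.18. For the Wnt pathway 19 of 73 were higher and 6 lower (34.2%, median 0.08). The largest differences were those of DKK3, the Wnt antagonist APCDD1 at 3.51, ROR1 and the receptor FZD7 at 3.13, and AXIN1, a scaffold of beta-catenin destruction, was not called at -0.12 (limma adjusted p = 0.566). For TGF-beta, activin and BMP genes 17 of 71 were lower and 12 higher (40.8%, median -0.04). A ligand and an antagonist of the BMP branch were both higher in Huh7. BMP2 was at 3.73 and 3.47 in Hep-3B and at 8.87 and 8.72 in Huh7, and GREM1, which binds it, at 2.27 and 2.52 against 8.26 and 8.17. ID4, a helix-loop-helix inhibitor that BMPs induce, differed by 3.32 and the ligand TGFB2 by 2.85.

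Developmental and imprinted genes followed. HOX and other homeobox genes, which set position along the body axis, had 19 higher and 5 lower of 70 (34.3%, median 0.08). HOXD4 was at 5.13 and 5.27 in Hep-3B and at 9.58 and 9.59 in Huh7, and HOXC6 at 3.39 and 3.57 against 7.11 and 7.33. HOXC10 differed by 3.22 and IRX3 by 2.13. Of 41 imprinted genes 10 were higher and 7 lower (41.5%, median 0.06). PLAGL1, a zinc finger factor, was at 2.70 and 2.87 against 8.25 and 8.19, all 3 probe sets higher. WT1, a factor of kidney and mesothelium, differed by 3.65, CDKN1C by 3.57 and PPP1R9A, a neuronal actin-binding protein, by -3.03. Cancer-testis genes, silent in most adult tissues, had 5 higher and 6 lower of 58 (19%, median 0.00), and 22 of them were low in both lines. DDX43 differed by 2.27 and PRAME by 1.63, and MAGEA6 by -2.20 and MAGEA12 by -1.52. Of 61 Kelch-like and cullin 3 genes 13 were higher and 12 lower (41.0%, median 0.04). Those with the largest differences were KLHL15 at 1.89, KLHL29 at 1.76, KLHL13 at 1.40 and KLHL42 at 1.11.

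At the probe set read per gene, no called member of the ribosomal and proteasome lists reached 2-fold. Of 53 cytosolic ribosomal protein genes 8 were higher and 2 lower (18.9%, median 0.11), with RPL36 at 0.75, RPL8 at 0.53, RPL27A at 0.48 and RPS7 at -0.45. Of 27 proteasome subunits 7 were higher and 1 lower (29.6%, median 0.21), with PSMD11 at 0.51, PSMB4 at 0.50 and PSMD6 at -0.61. A dimmer probe set of PSMD11, at 6.08 and 6.14 against 7.81 and 7.92, gave 1.75. PSMD4 gave 0.55 and, without probe sets that can bind several transcripts, -0.19. ACTB differed by -0.19 (limma adjusted p = 0.191) and GAPDH by 0.03 (limma adjusted p = 0.852). Of the 6 probe sets of ACTB, 2 were called lower in Huh7, at -0.49 and -0.40 (limma adjusted p = 0.00451 and 0.012).

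Markers of other liver cell types were counted beside these. Of 16 endothelial markers 0 were higher and 3 lower (18.8%), with a summed unlogged level of 433 and 435 in Hep-3B and of 264 and 295 in Huh7, and CDH5, ERG, KDR and OIT3 were low in both lines. LYVE1 differed by -2.0. TIE1 gave -1.57 and PECAM1 -1.75, but the sign of each turned with the probe sets read. The PECAM1 probe set read, at 7.13 in Hep-3B and 5.38 in Huh7, made up a large part of the difference between the endothelial sums. Of the 5 probe sets of PECAM1, 3 were called higher and 1 lower in Huh7. Of 16 blood and macrophage markers 2 were higher and 0 lower (12.5%), and their sum was 2408 to 2586 against 4632 to 4713. PTPRC was low in both lines, and the higher markers were CD14 at 2.09 and LYZ at 0.96. LYZ, at 11.12 in Hep-3B and 12.08 in Huh7, made up most of each sum. The median level of the list was 4.05 in Hep-3B and 4.0 in Huh7. Of 16 stellate cell and fibroblast markers 3 were higher and 2 lower (31.2%), the sums were 4369 to 4485 against 5033 to 5342, and LRAT, LUM and POSTN were low in both. ACTA2 had the largest called difference of this list at -4.41, lower in Huh7 while the sum was higher there. RGS5 differed by 1.03, PDGFRB by 0.66 and NGFR by -0.63. Of 15 cholangiocyte markers 2 were higher and 5 lower (46.7%), with sums of 17510 to 17521 against 7621 to 7687. The lower ones were led by KRT19, SPP1 and ANXA4. BICC1 had the largest called difference of this list and was higher in Huh7, at 5.10. The median level of the list was 8.25 in Hep-3B and 8.14 in Huh7. The part of these markers in the results was not tested.

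The share of genes called differed by chromosome. Among measured genes placed on one, the share higher in Huh7 ran from 7.26% on chromosome 18 to 24.9% on X, and the share lower from 7.02% on chromosome 21 to 21.9% on chromosome 16. Chromosomes X (24.9% higher, 8.76% lower), 5 (23.4% and 8.67%) and 10 (22.7% and 10.7%) leaned to Huh7. Chromosomes 16 (13.2% and 21.9%), 14 (10.1% and 21.6%), 2 (10.5% and 19.3%) and 18 (7.26% and 18.8%) leaned to Hep-3B. DNA copy number was not measured, and its part was not tested.

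**Figure D4:**
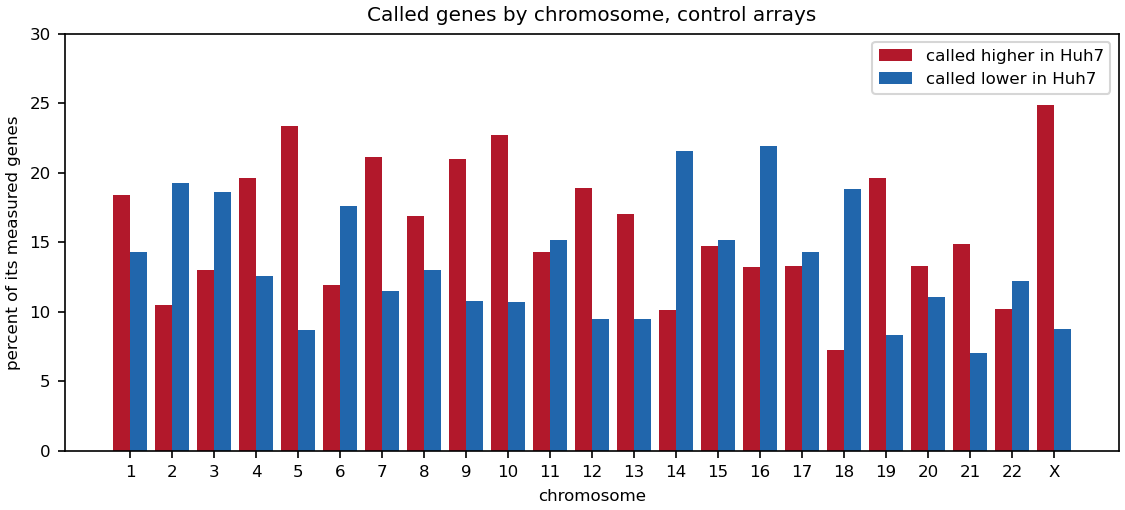
Percent of the measured genes of each chromosome (vertical) called higher (red) or lower (blue) in Huh7-shLuc than in Hep-3B-shLuc. Red exceeds blue most on X, at 24.9% against 8.76%, and blue exceeds red most on chromosomes 18 and 14, at 18.8% and 21.6% against 7.26% and 10.1%.

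Some neighbouring genes were called in the same direction. In the RefSeq gene order 20 runs of at least 6 adjacent measured genes were all called in 1 direction, 14 higher and 6 lower, holding 139 genes. The longest had 10 genes on chromosome 7, from IRF5 to ZC3HC1, with a median difference of 0.59, and its leading genes were TSPAN33 at 0.95, SMKR1 at 0.92 and ZC3HC1 at 0.78. On X a run of 9 genes from PRDX4 to PDK3 had a median of 1.16, led by KLHL15, the mitochondrial APOO at 1.56 and SAT1, a polyamine acetylase, at 1.54. On chromosome 1 a run of 8 from TBCE to EDARADD had a median of 1.58, led by GPR137B at 3.86, the oxidoreductase ERO1B at 2.54 and EDARADD at 2.46. The HOXC cluster on chromosome 12 gave a run of 6 from HOXC10 to HOXC6, in which HOXC10 (3.22), HOXC6 (3.74) and HOXC9 (1.5) led and HOXC8 was least at 0.34. On chromosome 3 the 8 genes from PBRM1 to STIMATE were all lower, among them ITIH3 at -5.38, the adjacent ITIH4 at -0.86 and ITIH1 at -0.68. ITIH4 was called at 1 of its 4 probe sets, with the others at 0.14, -0.06 and 0.10. Its place in the run rests on that probe set. On chromosome 4 ANKRD37, named above for hypoxia, lay in a lower run of 6 with SNX25 at -1.67 and CFAP97 at -1.05. On chromosome 16, 3 runs were lower and were led by ABAT at -1.57, LOC100505915 at -1.28 and DCTN5 at -1.20. On chromosome 11, 3 runs were higher and were led by MRPL11 at 2.13, SELENOH at 2.03 and LOC100130987 at 1.38. The other runs were led by TXNIP at 1.43 on chromosome 1, RNASEH1 at -1.51 and COLEC11 at -1.72 on chromosome 2, SMIM20 at 1.19 on chromosome 4, CDC23 at 1.16 and NSD1 at 2.24 on chromosome 5, SPC24 at 1.44 and BORCS8 at 1.08 on chromosome 19 and TIMM17B at 1.15 on X. Runs were not tested, and neighbouring genes can share promoters or overlap.

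The line difference was then read in the 4 arrays with the KLHL23 hairpin, which share no array with the control comparison. Both comparisons take their spread from the same fit to all 8 arrays, so their calls are not independent of each other. There 5980 genes (30.2%) were called, 2922 (14.8%) higher and 3058 (15.5%) lower in Huh7. Of the 5978 genes called in the control arrays, 4314 (72.2%) were called in the same direction and 29 in the opposite direction. Those 4314 were 72.1% of the calls of the knockdown arrays. Among the 1678 genes called at least 2-fold apart, 1587 (94.6%) were called in the same direction and 3 in the opposite. Among the 498 at least 4-fold apart, 491 (98.6%) were called in the same direction and 0 in the opposite. GPC3 differed by -8.92 in the knockdown arrays against -9.07 in the controls, CD81 by 5.92 against 5.76 and CDKN1A by -3.85 against -4.18. In these arrays the 3'-to-5' difference of ACTB was 0.737 and 0.753 in Hep-3B and 0.525 and 0.546 in Huh7, the reverse of its order in the controls.

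A change of the line difference with the hairpin was called for 191 genes (0.966%), 70 (0.354%) more positive and 121 (0.612%) more negative in the knockdown arrays. TAGLN, an actin-binding protein of smooth muscle, was at 9.27 and 9.18 in Hep-3B control, 7.34 and 7.66 in Huh7 control, 8.48 and 7.66 in Hep-3B knockdown and 9.47 and 9.16 in Huh7 knockdown. Its line difference went from -1.72 to 1.24, a change of 2.96 (SE 0.34, n = 2 per group, limma adjusted p = 0.0128). NDRG1 went from -2.52 to 0.32, with knockdown arrays at 9.49 and 8.61 in Hep-3B and 9.51 and 9.21 in Huh7. For both genes the Huh7 arrays were the lower ones with the control hairpin, and the lines came level or crossed with the other. C6, a complement component, went from 0.17 to 2.74, CPT1A from -3.49 to -1.0 and the matrix protease MMP7 from 1.16 to 3.51. ADH4, an alcohol dehydrogenase, went the other way from 1.88 to -1.43, at 6.81 and 6.66 in Hep-3B control and 8.49 and 8.73 in Huh7 control, then 8.38 and 8.95 against 6.93 and 7.53. CYP17A1, a steroid hydroxylase, went from -0.16 to -3.06, the lipase inhibitor G0S2 from 4.58 to 1.97, the pantetheinase-related VNN3P from 3.93 to 1.55 and the lipase LIPG from 0.45 to -1.84. The number of such calls depended on which array was left out. It was 195 without Hep-3B knockdown replicate 1. It was 1 without Huh7 control replicate 3, 4 without its replicate 1, and 4 and 11 without Hep-3B control replicates 1 and 3. It was 6 without Hep-3B knockdown replicate 3, and 104 and 401 without Huh7 knockdown replicates 1 and 3. Against a 2-fold threshold (limma treat) it was 0, with 59 genes at an unadjusted p under 0.05.

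**Figure D5:**
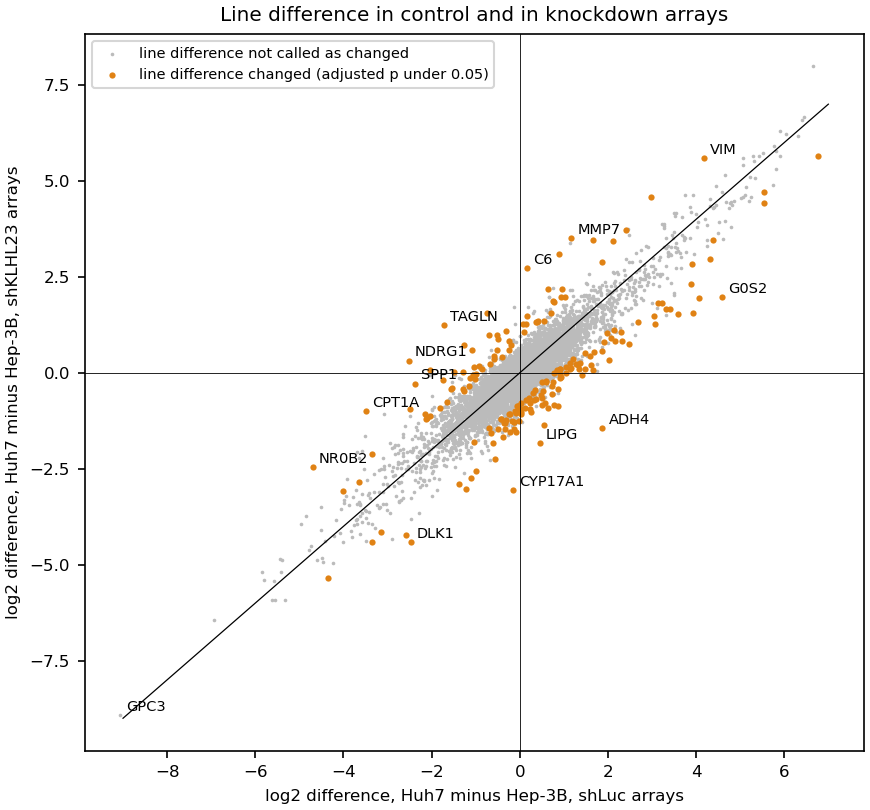
Line difference of each gene in the control arrays (horizontal, log2, Huh7 minus Hep-3B) and in the KLHL23 knockdown arrays (vertical), with the line of equal difference in black and the 191 genes whose difference changed in orange. GPC3 lies near the line at -9.07 and -8.92, TAGLN and NDRG1 above it and ADH4 below it at 1.88 and -1.43.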

How the data were processed

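Expression was measured on Affymetrix arrays in 8 samples, 4 of them the control arrays compared here. The deposited values are log2 expression. Per the submitters' processing notes, the authors used Affymetrix Expression Console 1.2 and RMA, a robust multi-array summary; further settings are not given in the sources used here. RMA evens the arrays' distributions, which hides changes in total RNA, and compresses dim probe sets. Of 54675 probe sets 41097 were paired with 1 symbol, 1801 with several and 11777 with none. Symbols of 41043 were looked up by gene identifier in RefSeq (GRCh38.p14), which changed 0. Among probe sets with that symbol only, the one with the highest mean over the 8 arrays stood for the gene, which gave 19775 genes.

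A mean for each of 4 groups was fitted to all 8 arrays and all probe sets with limma 3.58.1 in R 4.3.3 (lmFit, eBayes; 4 residual and 5.16 prior degrees of freedom), with Benjamini-Hochberg adjustment over all probe sets. The number of arrays, 2 per group, limits the precision. The procedure was checked on simulated data.

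The groups compared and the gene lists were chosen with earlier results of these data known. Named genes are the 15 called with the largest difference in each direction, the 4 leading called members per list (2 where none was called), the 5 largest changes of the line difference in each direction, the 3 leading genes per run and a fixed set led by KLHL23. Genes outside this rule are marked as chosen after their values were seen or are named only to place a run or to print a promoter. Some genes of the fixed set are not reported here. A further 35 sex-linked genes were fitted and counted but not named. Alternatives were other normalizations, filters, probe set choices, variance models, a 2-fold threshold, a replicate block and leaving out each array.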

Additional observations from a re-analysis of the deposited data

Results flagged for a closer look

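The following values are the line difference (Huh7 minus Hep-3B) in the KLHL23 knockdown arrays minus that in the control arrays, for named genes where limma called this change at an adjusted p under 0.05. All are on the log2 scale with n = 2 per group.

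The line difference was more negative in the knockdown arrays for 16 of these genes. The values were -3.31 for ADH4, -2.90 for CYP17A1, -2.62 for G0S2, -2.38 for VNN3P, -2.29 for LIPG and -1.67 for STAR. The fetal liver gene DLK1 changed by -1.94, the BMP-induced ID4 by -1.65 and the Wnt receptor FZD7 by -1.30. Smaller changes were -1.16 for AMDHD1, -1.12 for AMIGO2, -1.12 for LINC01419, -1.11 for FGF19, -1.0 for FAS, -0.92 for HOXD4 and -0.82 for RFX6.

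The line difference was higher in the knockdown arrays for TAGLN by 2.96, NDRG1 by 2.84, C6 by 2.57, CPT1A by 2.49, MMP7 by 2.35, NR0B2 by 2.25 and SPP1 by 2.10. It was higher by 1.43 for VIM, 1.30 for LOC100505915, 1.24 for SERPINA7, 1.09 for SLC40A1, 0.94 for CYFIP2 and 0.92 for ANXA4. For NR0B2, CPT1A and SPP1 the Huh7 knockdown arrays (8.21 and 7.92, 8.25 and 8.32, 11.59 and 12.12) stood above the Huh7 control arrays (6.06 and 6.12, 5.4 and 5.4, 9.79 and 9.71), while in Hep-3B each gene's arrays lay within 1 unit of each other. The lowest 5 and the highest 5 of these values were named because of their size, so their sizes describe the extremes.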

How the results depend on the processing

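The 5978 genes called between the control lines numbered 4562 to 7320 under the settings other than a 2-fold threshold and leaving out an array. With the threshold (limma treat) 736 genes, 1442 probe sets, 690 genes of the knockdown arrays and 0 changes of the line difference were called, against 2650 changes at an unadjusted p under 0.05 by limma eBayes. Without _x_at and _s_at probe sets 8533 probe sets were called in place of 14085. Changes of the line difference were 325 among brighter probe sets and 533 with an intensity trend and robust eBayes, in place of 191. Leaving out each array gave 9459 to 15565 probe sets, 4066 to 6517 genes, 4691 to 5523 genes of the knockdown arrays and 1 to 401 changes. The changes numbered 4 without Hep-3B control replicate 1, 11 without its replicate 3, 4 and 1 without Huh7 control replicates 1 and 3, 195 and 6 without Hep-3B knockdown replicates 1 and 3, and 104 and 401 without Huh7 knockdown replicates 1 and 3.

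Of 209 called named genes 164 had a value under all 18 settings other than the 2-fold threshold, and 140 of these kept their direction and call under each. The other 45 had none under at least 1 setting. The sign turned without _x_at and _s_at probe sets for CDC25C (-0.02), DLK1 (0.09), IL1RN (0.05), KANK2 (-0.06), MYCN (-0.06), PSMD4 (-0.19) and TIE1 (0.26), and when probe sets of a gene were averaged for PDXDC1 (0.05), PECAM1 (0.20) and ZEB2 (0.01). Among genes not called, leaving out each array moved AXIN1 from -0.28 to 0.04, CYP17A1 from -0.36 to 0.03 and ZEB2 from -0.38 to 0.01. The highest value of each was without Hep-3B control replicate 1, and CYP17A1 was also above 0 without Huh7 control replicate 3 (0.02). The number of the replicate did not pair the groups: deviations of same-numbered arrays correlated at -0.091 to 0.089. With the replicate block 13638 probe sets, 5747 genes (5650 shared), 5795 genes of the knockdown arrays and 130 changes were called. A lone array left in a group was assumed to vary like the other groups. Where a sign or count moved, the cause was not tested.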
